A study of Mus musculus with 2 samples.

Results

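Ccl2, Ccl3, Ccl4, Ccl6, Ccl7, Ccl8, Ccl9, Ccl12, Ccl24 and Pf4 are the CC chemokines and the platelet factor 4 gene described here in cells of the mouse heart ventricle. The 10 genes were chosen by symbol, and all 10 were found among the 27998 genes counted in each of the 2 libraries. The cells were non-myocytes from the ventricles of wild-type mice (C57BL/6, aged 10 to 12 weeks), sequenced as single cells, and each of the 2 mice gave 1 library. There was no treatment, and both mice belong to 1 group, so the comparisons are between cell classes of the same hearts. The atria had been cut away, the myocytes had been spun out, and live cells were sorted as negative for the dye 7-AAD before capture, so sorting and digestion preceded every value. A UMI is a tag that stands for 1 captured RNA molecule, and CPM is the UMIs of a gene after the summed cells of a class are scaled to 1000000 UMIs.

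Cells were placed in classes by UMIs of a few genes. Macrophages carried at least 15 UMIs of C1qa, C1qb and C1qc summed (the subunits of complement C1q). They were split into a resident-marker subset (Timd4 and Lyve1 summed to at least 2 UMIs), a Ccr2 subset (at least 2 UMIs of Ccr2), a subset with neither and the few cells with both. Dendritic cells carried Cd209a with at most 10 C1q UMIs, fibroblasts carried at least 5 UMIs of Dcn, and endothelium carried at least 2 UMIs of Pecam1, Cdh5 and Egfl7 summed. These gate genes are no results. Cells that met none of these class gates and had at most 10 C1q UMIs were grouped further. Neutrophil-type cells carried at least 20 summed UMIs of S100a8 and S100a9. Of the rest, lymphocytes carried at least 2 summed UMIs of Cd3d, Cd3e and Cd3g or at least 4 of Cd79a and Cd79b. Monocyte-type cells were those remaining with at least 5 summed UMIs of Ly6c2, Plac8 and Chil3.

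Chemokines are small secreted proteins that guide leukocytes through G protein-coupled receptors, and the CC group is named for a pair of adjacent cysteines. Ccl2, Ccl7, Ccl8 and Ccl12 are the monocyte chemoattractant proteins, of which Ccl2, Ccl7 and Ccl12 act through Ccr2. Ccl3 and Ccl4 are the macrophage inflammatory proteins, Ccl6 and Ccl9 are rodent chemokines that bind Ccr1, and Ccl24 is an eotaxin that binds Ccr3. Pf4 is a CXC chemokine best known from platelets and is also transcribed in macrophages.

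Of the 10 genes, 8 lie on chromosome 11 of mm10 in a pair of groups separated by 1456.1 kb. The first group spans 81.2 kb and runs from Ccl2 (chr11:82035571-82037453) through Ccl7 (chr11:82045712-82047525) and Ccl12 (chr11:82101845-82103400) to Ccl8 (chr11:82115185-82116799), all on the plus strand. The second spans 91.8 kb and holds Ccl9 (chr11:83572919-83578636), Ccl6 (chr11:83587882-83593087) and Ccl3 (chr11:83647844-83649355) on the minus strand and Ccl4 (chr11:83662584-83664683) on the plus strand. Pf4 (chr5:90772435-90773383) and Ccl24 (chr5:135569937-135573049) lie far apart on chromosome 5. Positions are those of whole genes in the GENCODE vM21 annotation.

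Upstream sequence from RefSeq on GRCm38.p6 was matched for 6 of the 10 genes: Ccl3, Ccl6, Ccl8, Ccl9, Ccl12 and Pf4. The 250 bases before the RefSeq start are printed for 4 of them, 5′ to 3′ on the gene's strand. Ccl6 and Ccl9 are shown because their UMIs rose and fell together most closely from macrophage to macrophage, and Ccl12 and Ccl8 because they are neighbours with unlike patterns across macrophages. Capitals mark matches to the motifs searched.
Ccl6 (chr11:83593088-83593337, minus strand): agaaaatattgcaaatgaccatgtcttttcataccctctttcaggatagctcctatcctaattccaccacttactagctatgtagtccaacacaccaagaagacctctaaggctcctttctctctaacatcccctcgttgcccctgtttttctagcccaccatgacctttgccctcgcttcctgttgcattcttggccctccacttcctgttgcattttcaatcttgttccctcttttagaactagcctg
Ccl9 (chr11:83578637-83578886, minus strand): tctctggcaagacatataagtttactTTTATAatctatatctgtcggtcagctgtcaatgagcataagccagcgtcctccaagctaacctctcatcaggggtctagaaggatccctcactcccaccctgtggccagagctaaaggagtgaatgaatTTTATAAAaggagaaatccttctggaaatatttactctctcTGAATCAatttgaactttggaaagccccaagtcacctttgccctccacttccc
Ccl12 (chr11:82101595-82101844, plus strand): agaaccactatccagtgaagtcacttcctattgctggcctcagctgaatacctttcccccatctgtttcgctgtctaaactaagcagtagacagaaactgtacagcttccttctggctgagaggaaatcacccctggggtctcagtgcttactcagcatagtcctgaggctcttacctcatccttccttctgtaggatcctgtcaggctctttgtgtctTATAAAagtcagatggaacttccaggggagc
Ccl8 (chr11:82114935-82115184, plus strand): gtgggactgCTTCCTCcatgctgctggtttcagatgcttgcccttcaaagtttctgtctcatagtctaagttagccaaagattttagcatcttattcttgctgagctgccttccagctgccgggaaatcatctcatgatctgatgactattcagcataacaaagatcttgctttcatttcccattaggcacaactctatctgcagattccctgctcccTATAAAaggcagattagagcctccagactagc
The letters searched on both strands were TATAAA for a TATA box, TGANTCA for AP-1, GAGGAAG for PU.1 and TTGCNNAA for CEBP, besides an NF-kB and an IRF motif of 10 letters each. A TATA box match began at -31 in Ccl12 and at -32 in Ccl8, counted from the base before the start. In Ccl9 the matches began at -224, -94 and -92, the last pair overlapping as 1 palindromic stretch, and an AP-1 match began at -53. Of 32851 RefSeq promoters of this length, 12.4% held the TATA box letters, 6.75% the AP-1 letters, 9.56% the CEBP letters, 2.98% the IRF motif and 1.21% the NF-kB motif. Ccl8 also had a PU.1 match at -241, letters that 10.6% of promoters held. No motif of the set was found in the Ccl6 window. The longest run that the Ccl6 and Ccl9 windows shared was gccctccacttcc, 13 bases beginning at -55 in Ccl6 and at -14 in Ccl9. A match is a string of letters and not a measured site.

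The libraries held 7732 barcodes with 21355383 UMIs in mouse 1 and 6367 barcodes with 15174548 UMIs in mouse 2, of which 6608 and 5687 cells were kept. Macrophages numbered 3001 and 2362, fibroblasts 1865 and 1308, endothelium 967 and 1301, and dendritic cells only 10 and 26. Cells that met more than 1 gate were left out (141 and 92). Marker lists that hold no gate gene were checked: the 8 macrophage markers summed to 4465 and 4070 CPM in macrophages, to 681 and 663 CPM in dendritic cells (where Cd68 alone was at 351 and 241 CPM) and to at most 152 CPM in fibroblasts and endothelium. The 6 dendritic markers summed to 1548 and 1075 CPM in dendritic cells against 113 and 119 CPM in macrophages. Napsa alone made up 888 and 492 CPM of that sum and was at 592 and 290 CPM in monocyte-type cells. Each marker but Zbtb46 (2 and 0 UMIs in dendritic cells) was above macrophages in both mice, Flt3 on only 2 and 8 UMIs. Between the libraries 65 cell barcodes were shared, 52 of them among kept cells.

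Macrophages devoted 1.54% of all their UMIs to the 10 genes in mouse 1 and 1.13% in mouse 2, and dendritic cells 0.19% and 0.162%. Fibroblasts devoted 0.216% and 0.0753%, and endothelium 0.0597% and 0.0354%. All 10 genes passed the filter on low counts. By edgeR's quasi-likelihood test on UMIs summed per class and mouse, a gene was called when its Benjamini-Hochberg adjusted p was below 0.05 and its log2 fold change was 1 or more in size. The fit scales the sums by TMM and CPM does not, so a fitted value can lie outside the CPM ratios of both mice. Against endothelium all 10 were called higher in macrophages, where 16.8% of the 11601 genes tested were. Against fibroblasts 8 were called higher (18.6% of all genes) and none lower (19.4% of all genes), and against dendritic cells 9 were called higher (6.67% of all genes). The median log2 fold change of the 10 was 5.45 against endothelium, 5.51 against fibroblasts and 4.61 against dendritic cells, where the median of all genes was 0.02, 0.01 and 0.81. The dendritic sums held only 48446 and 99509 UMIs. In sums of this kind, fewer RNA molecules per cell and fewer cells with the RNA cannot be told apart, so shares of cells are given further on.

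**Figure D1:**
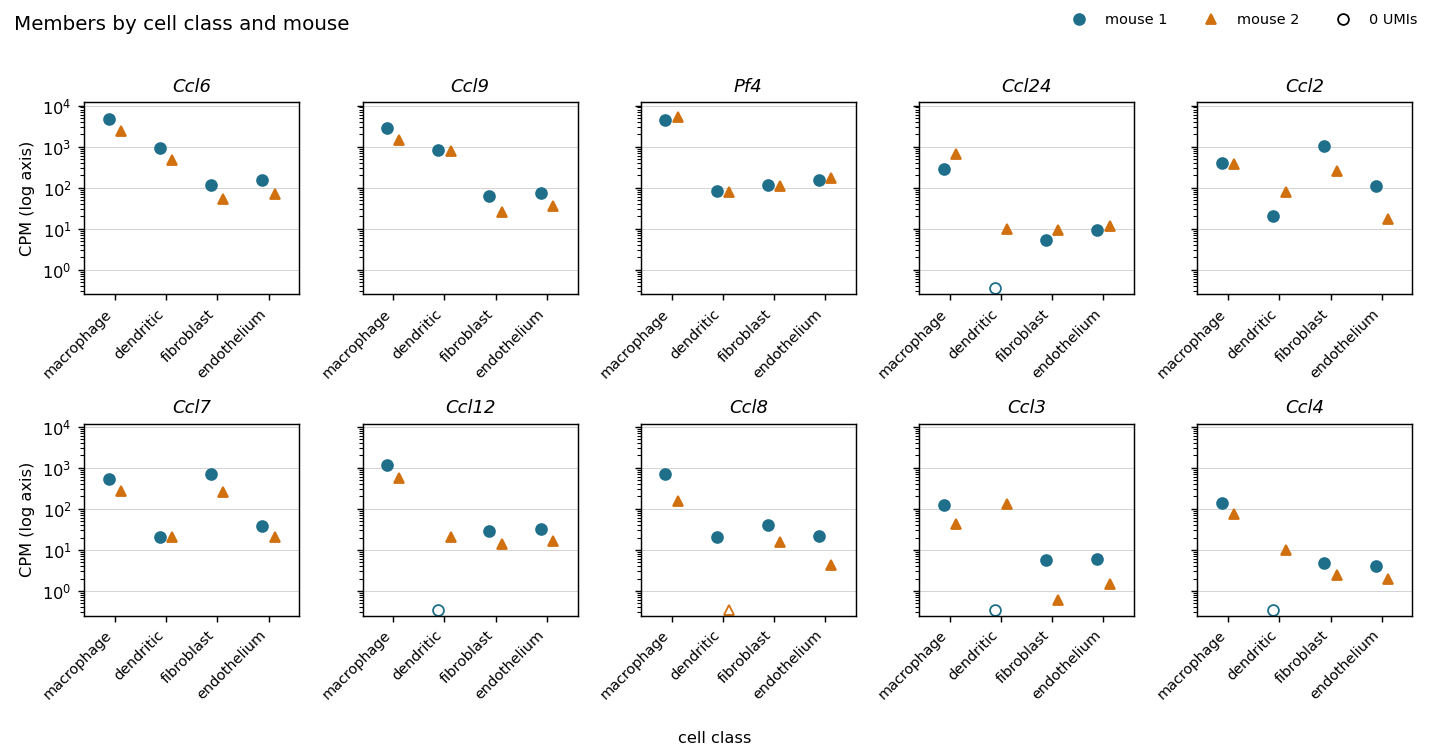
CPM (log axis) of each of the 10 genes in macrophages, dendritic cells, fibroblasts and endothelium, with a circle for mouse 1, a triangle for mouse 2 and open symbols at the bottom for 0 UMIs. Macrophages stand above fibroblasts and endothelium in both mice for 8 genes, while for Ccl2 the fibroblasts of mouse 1 reached 1062 CPM and the macrophages 407 CPM.

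Ccl6 was at 4673 CPM in the macrophages of mouse 1 (43242 UMIs) and 2379 CPM in mouse 2 (15660 UMIs), a mean of 3526 ± 1623 (SD, n = 2). In fibroblasts it was at 116 and 54.3 CPM. Among the 4 gated classes the macrophage values were the highest in both mice, with a log2 fold change of 5.76 ± 0.22 (SE) against fibroblasts (adjusted p = 2.23e-25, edgeR's quasi-likelihood test). Its neighbour Ccl9 was at 2817 and 1464 CPM in macrophages, a mean of 2140 ± 957, and at 62.8 and 25.7 CPM in fibroblasts. Ccl9 differed by 5.98 ± 0.24 on the log2 scale (adjusted p = 2.07e-24, edgeR's quasi-likelihood test). Both genes were lower in mouse 2 in each of the 4 classes, and the classes did not overlap in spite of it, apart from fibroblasts and endothelium.

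Pf4 was at 4450 and 5293 CPM in macrophages (41180 and 34848 UMIs), a mean of 4872 ± 596, and at 118 and 113 CPM in fibroblasts. It was the steadiest of the 10 between the mice outside Ccl2, and its log2 fold change against fibroblasts was 5.76 ± 0.22 (adjusted p = 2.94e-25, edgeR's quasi-likelihood test). Since Pf4 is a platelet gene, the 7 platelet and megakaryocyte markers were read beside it: they summed to 10.6 and 20.4 CPM in macrophages, and Gp9, Gp1bb, Gp5 and Treml1 were at 0. Nearly all of the sum was the chemokine Ppbp, at 9.73 and 18.5 CPM (90 and 122 UMIs). Ppbp was at 0.377 and 0.604 CPM in fibroblasts and 4.13 and 0.479 CPM in endothelium. Ccl24 was at 283 and 649 CPM in macrophages and at 5.28 and 9.36 CPM in fibroblasts, a log2 fold change of 6.31 ± 0.22 (adjusted p = 3.29e-26, edgeR's quasi-likelihood test). It was higher in mouse 2 in macrophages, fibroblasts and endothelium alike.

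Ccl12 was at 1202 and 561 CPM in macrophages (11124 and 3691 UMIs) and at 28.3 and 13.6 CPM in fibroblasts, which gave 5.75 ± 0.21 (adjusted p = 8.9e-26, edgeR's quasi-likelihood test). Ccl8 was at 714 and 159 CPM in macrophages and at 40.8 and 15.7 CPM in fibroblasts, which gave 4.2 ± 0.2 (adjusted p = 3.3e-22, same test). For both genes the lower macrophage value exceeded the highest value in fibroblasts and endothelium. Ccl3 was at 127 and 42.2 CPM in macrophages and at 5.66 and 0.604 CPM in fibroblasts (log2 difference 5.01 ± 0.31). Ccl4 was at 142 and 73.8 CPM and at 4.72 and 2.41 CPM (5.27 ± 0.23). These last 2 rested on 1171 and 278 UMIs for Ccl3 and 1310 and 486 UMIs for Ccl4, the fewest of the 10 in macrophages.

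Ccl2 and Ccl7 were the 2 members shared with fibroblasts. Ccl2 was at 407 and 375 CPM in macrophages (3764 and 2468 UMIs), a mean of 391 ± 22.6, and at 1062 and 261 CPM in fibroblasts (5630 and 866 UMIs), a mean of 662 ± 566. In mouse 1 the fibroblasts were 2.61-fold above the macrophages, and in mouse 2 the macrophages were 1.43-fold above the fibroblasts. The fitted log2 fold change of macrophages against fibroblasts was 0.00 ± 0.25 (adjusted p = 0.992, edgeR's quasi-likelihood test), and in the alternative fits it ranged from -0.41 without the mouse term to 0.03 without dendritic cells. Ccl7 was at 539 and 275 CPM in macrophages and at 711 and 257 CPM in fibroblasts, with a fitted difference of 0.21 ± 0.16 (adjusted p = 0.277, same test) whose sign turned to -0.04 with relative log expression scaling or DESeq2 and to -0.08 with a stricter dendritic gate. Relative log expression scaling moved the median of all genes from 0.01 to -0.24, and the calls from 2161 higher and 2246 lower to 1783 and 2708. For neither gene was the order of the 2 classes the same in both mice. In CPM the log2 ratios of the mice were -1.38 and 0.52 for Ccl2 and -0.40 and 0.10 for Ccl7. The SE of these fits thus does not measure the spread between the mice, and the fitted Ccl7 value lies above both.

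Between fibroblasts and endothelium, 3 of the 10 were called higher in fibroblasts (15.9% of all genes were) and none lower (14.9%). They were Ccl7 (4.02 ± 0.21, adjusted p = 3.34e-20), Ccl2 (3.45 ± 0.3, adjusted p = 4.17e-13) and Ccl8 (1.27 ± 0.28, adjusted p = 0.000188), by edgeR's quasi-likelihood test. Endothelium held Ccl2 at 108 and 17.7 CPM, Ccl7 at 37.2 and 20.6 CPM and Ccl8 at 21.3 and 4.31 CPM. The call for Ccl8 was lost without the mouse term (adjusted p = 0.245) and its direction turned to -0.48 when cells that met more than 1 gate were kept. With those cells kept, 103 of which met the macrophage and endothelial gates, 8 of the 10 were called, 2 higher in fibroblasts (14.7% of all genes were) and 6 lower (15.1%). The 6 were Ccl4, Ccl6, Ccl9, Ccl12, Ccl24 and Pf4. Over single fibroblasts Ccl2 and Ccl7 correlated at r = 0.37 in the 1865 cells of mouse 1 and r = 0.34 in the 1308 cells of mouse 2, within 1 library and over cells of unlike depth. Ccl7 was found in 58.5% of fibroblasts with Ccl2 and in 27.2% of those without it in mouse 1, and in 29.3% and 12% in mouse 2. The 10% of fibroblasts with most Ccl2 had 79.9% of its UMIs in mouse 1. In mouse 2 only 7.57% of fibroblasts had a Ccl2 UMI, and 1 cell with 181 UMIs held 20.9% of them.

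Dendritic cells, summed over 10 and 26 cells, shared Ccl6 and Ccl9 with macrophages at a lower level. Ccl9 was at 846 and 794 CPM there (41 and 79 UMIs), and macrophages were 3.33-fold and 1.84-fold higher (log2 1.84 ± 0.24, adjusted p = 1.87e-07, edgeR's quasi-likelihood test). Ccl6 was at 908 and 472 CPM (44 and 47 UMIs), and macrophages were 5.15-fold and 5.04-fold higher (fitted log2 2.96 ± 0.23, adjusted p = 2.1e-13, same test). Both fitted values carry the TMM scaling and lie above the CPM ratios of both mice. Those ratios were log2 1.73 and 0.88 for Ccl9 and 2.36 and 2.33 for Ccl6. Both genes were among the members called higher in dendritic cells than in fibroblasts (6.84% of all genes were), Ccl9 by 4.15 ± 0.28 and Ccl6 by 2.80 ± 0.26 on the log2 scale (adjusted p = 7.62e-16 and 9.78e-12, edgeR's quasi-likelihood test). Their order was the same in both mice: macrophages, then dendritic cells, then fibroblasts and endothelium, which were not called different from each other.

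The other members were thin in dendritic cells. Pf4 had 4 and 8 UMIs, Ccl2 had 1 and 8, and Ccl7, Ccl8, Ccl12, Ccl4 and Ccl24 had 1 to 3 over both mice. Taking UMIs of both mice together, macrophages were 59.2-fold higher for Pf4 (95% counting interval 33.9 to 115), 69.2-fold for Ccl12 (19.2 to 572) and 64.3-fold for Ccl24 (11.5 to 2542). Such intervals cover counting error only. For Ccl2 the call against dendritic cells was lost without the mouse term (adjusted p = 0.114) and with DESeq2 (adjusted p = 0.18), and for Ccl4 it was lost with DESeq2 (adjusted p = 0.0815). Ccl3 was not called (0.28 ± 0.53, adjusted p = 0.829, edgeR's quasi-likelihood test). All 13 of its dendritic UMIs came from 1 cell of mouse 2, and under a stricter dendritic gate the call appeared (adjusted p = 0.00118). The calls over all genes in this comparison moved with the scaling, from 774 higher and 172 lower to 426 and 197 with relative log expression. DESeq2, which differs in its test and filter too, gave 265 and 301.

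Outside macrophages, low counts of these genes can come from RNA free in the suspension, and 1 source keeps its genes in 1 ratio in every class. The UMIs of each gene were therefore divided by those of C1q, which also set the macrophage gate, and compared with the macrophages of the same mouse. In fibroblasts and endothelium the ratio relative to macrophages was 1.31 to 1.64 for Pf4, 1.39 to 1.43 for Ccl6, 1.08 to 1.25 for Ccl9, 1.16 to 1.49 for Ccl12 and 0.875 to 1.43 for Ccl24. Lymphocytes, which served as a class that should lack these 5, gave 1.48 and 1.18 for Pf4 and 0.97 and 1.31 for Ccl6. On fewer UMIs they gave 1.45 and 1.71 for Ccl9, 1.89 and 1.67 for Ccl12, and 1.60 and 1.44 for Ccl24. For these 5 genes the fibroblast and endothelial ratios were close to those of macrophages. Ccl3 and Ccl4 were thinner. Ccl3 was at 2.50 and 0.882 in fibroblasts (30 and 2 UMIs) and at 2.00 and 1.68 in endothelium (10 and 3 UMIs). Ccl4 was at 1.86 and 2.02 in fibroblasts (25 and 8 UMIs) and at 1.25 and 1.28 in endothelium (7 and 4 UMIs).

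For 3 other genes the fibroblast ratio stood apart. Ccl2 was 146 and 43 times as abundant per C1q UMI in fibroblasts as in macrophages, Ccl7 was 73.7 and 57.7 times, and Ccl8 was 3.19 and 6.1 times. Ccl8 was also 3.49 times as abundant in the lymphocytes of mouse 1 (11 UMIs) and at 0 UMIs in those of mouse 2, and it was 1.28 and 1.34 times in endothelium. Ccl2 in endothelium was 11.4 and 2.34 times, and there RNA from fibroblasts was measured as well: per UMI of 6 fibroblast markers it was 6.47 and 5.87 times the fibroblast value, and Ccl7 was 3.33 and 6.93 times. In lymphocytes that quotient was 2.30 and 4.48 times for Ccl2 (4 and 2 UMIs) and 2.58 and 6.82 times for Ccl7 (3 and 3 UMIs). The endothelial values of Ccl7 were thus close to those of the background class. In macrophages the same quotient was 38.6 and 190 times for Ccl2 and 76.4 and 141 times for Ccl7. In dendritic cells and lymphocytes the gate itself held C1q to at most 10 UMIs a cell, so the size of the ratio there depends on the gate. Fibroblasts and endothelium were held below 15, since cells that met more than 1 gate were left out. In dendritic cells Ccl6 was at 10.5 and 13.8 times, Ccl9 at 16.2 and 37.8 times and Pf4 at 0.999 and 1.06 times.

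**Figure D2:**
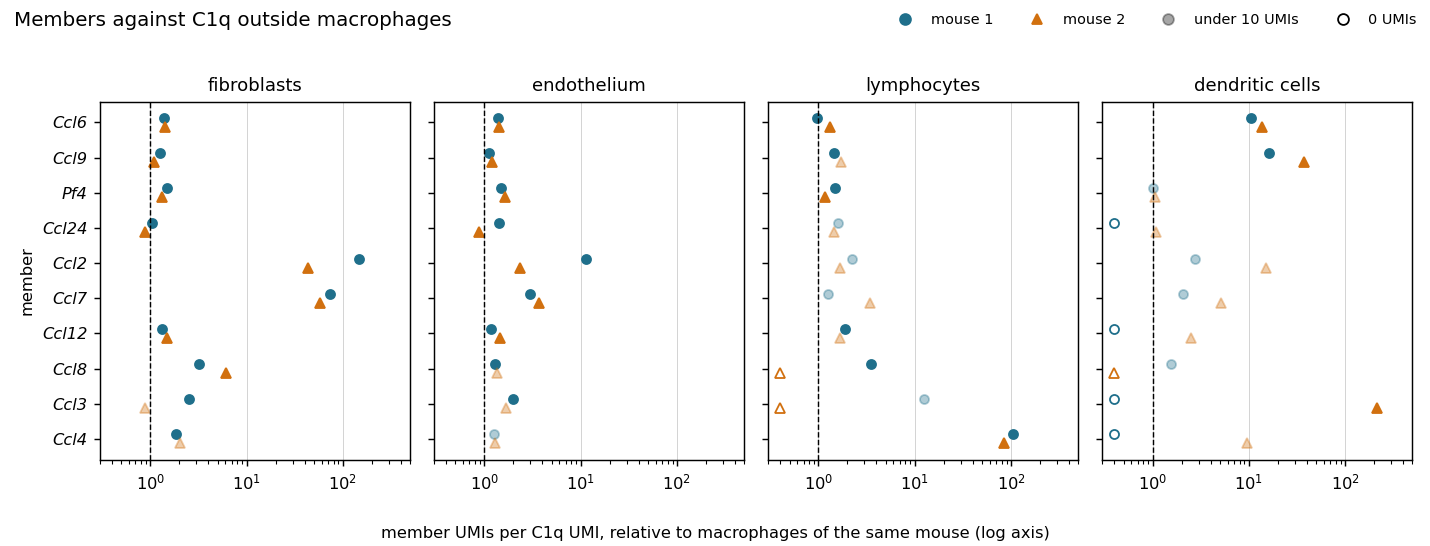
UMIs of each gene per C1q UMI in fibroblasts, endothelium, lymphocytes and dendritic cells, relative to macrophages of the same mouse (log axis, dashed line at 1), with pale symbols under 10 UMIs and open ones at 0. Ccl2 and Ccl7 in fibroblasts, Ccl4 in lymphocytes, and Ccl6 and Ccl9 in dendritic cells lie far to the right, while Pf4 stays between 0.999 and 1.64 in all 4 panels. Ccl3 in dendritic cells of mouse 2 lies furthest right, at 215 on 13 UMIs of 1 cell. The gates of dendritic cells and lymphocytes limit C1q.

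Shares of cells were read beside these ratios. A Pf4 UMI was found in 96.1% of macrophages of mouse 1 (95% Clopper-Pearson interval 95.3 to 96.8) and 96.0% of mouse 2, in 27.8% and 24.9% of fibroblasts and in 20% and 17.9% of lymphocytes. Median depth was 2845 and 2616.5 UMIs in macrophages, 2752 and 2471 in fibroblasts, and 1498.5 and 1654 in lymphocytes. After each cell was thinned to 1000 UMIs, which left out 13 and 40 fibroblasts and 1 and 10 lymphocytes, Pf4 was in 11.3% and 11% of fibroblasts and in 11.9% and 11.5% of lymphocytes, so the shares of these 2 classes were close. Ccl2 after thinning was in 24% and 5.21% of fibroblasts against 2.75% and 1.04% of lymphocytes, and Ccl7 in 24.8% and 7.89% against 1.83% and 1.04%. In mouse 1, where fibroblasts had the higher CPM of Ccl2 and Ccl7, the share of cells was not higher in fibroblasts before thinning: 32.7% against 43.2% of macrophages for Ccl2 and 37.4% against 44.6% for Ccl7.

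Among macrophages, the 10 genes divided into broad and patchy ones. Ccl6 was found in 96.2% and 86.2% of macrophages and Ccl9 in 95% and 80.8%, close to Pf4. The others were found in fewer: Ccl12 in 55.9% and 30.9%, Ccl7 in 44.6% and 24.8%, Ccl2 in 43.2% and 37.4%, Ccl24 in 36.4% and 54.3%, Ccl8 in 32.8% and 12.6%, Ccl3 in 21.7% and 8.09%, and Ccl4 in 15% and 10.5%. Lymphocytes gave at most 8.18% for Ccl12, 7.27% for Ccl8 and 11.3% for Ccl4 at their lower depth. A macrophage carried a median of 5 of the 10 genes in mouse 1 (quartiles 4 and 7) and 4 in mouse 2 (quartiles 3 and 6), and 16 and 2 cells carried all 10. Cells without any were 3 of 3001 and 12 of 2362, against 353 of 1865 and 597 of 1308 fibroblasts.

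The UMIs of the patchy genes were held by fewer cells. The 10% of macrophages with most Ccl8 held 80.6% and 94.2% of its UMIs, those with most Ccl4 held 88.7% and 97.7%, and those with most Ccl3 held 70% in mouse 1. In mouse 2 only 8.09% of macrophages had any Ccl3, so the measure says nothing there. It says little for Ccl8 and Ccl4 in mouse 2, where not many more than 10% of macrophages had any. For Ccl6 the figure was 28.7% and 34.9%, for Ccl9 26% and 33.3%, and for Pf4 29.8% and 30.4%. The 10% of macrophages with most UMIs of any kind held 19.7% and 19.0% of all UMIs, and those with most C1qa held 20.8% and 21.5% of it. Ccl6, Ccl9 and Pf4 were thus less even than depth, and their figures were below those of the other 7. The other 7 were also sparser, at 0.118 to 3.71 UMIs per macrophage against 4.08 to 14.8. The measure rises as UMIs per cell fall, so evenness and abundance were not told apart. The richest single macrophage held 288 Ccl8 UMIs in mouse 1, and 134 was the most for Ccl12.

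The resident-marker subset held 1821 and 975 cells (60.7% and 41.3% of macrophages), the Ccr2 subset 132 and 112, and the subset with neither 1025 and 1266. The 10 genes took 1.85% and 1.51% of UMIs in the resident-marker subset, 1.01% and 0.843% in the subset with neither, and 0.694% and 0.491% in the Ccr2 subset. Against the Ccr2 subset, 6 of the 10 were called higher in the resident-marker subset (3.5% of the 9956 genes tested were) and 1 lower (2.95%). The median log2 fold change of the 10 was 1.67, and that of all genes was 0.03. These fits have 2 residual degrees of freedom, so the calls rest largely on the spread shared across genes.

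**Figure D3:**
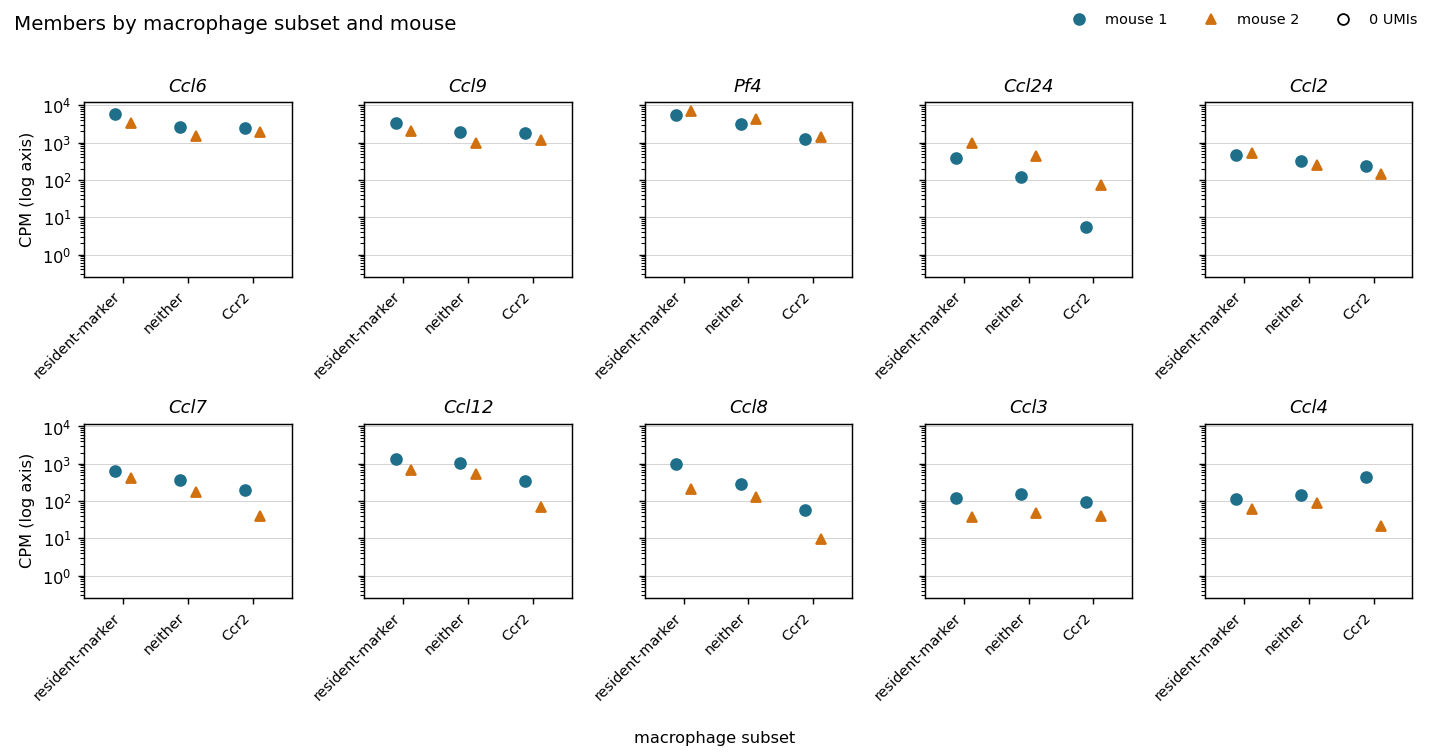
CPM (log axis) of each gene in the resident-marker, neither and Ccr2 subsets of macrophages, with circles for mouse 1 and triangles for mouse 2. Ccl24, Ccl8, Ccl12, Ccl7, Ccl2 and Pf4 step down from resident-marker to Ccr2 cells in both mice, while Ccl3 stays level and Ccl4 goes opposite ways in the mice.

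Ccl24 was at 382 and 955 CPM in resident-marker cells (2269 and 2876 UMIs), 122 and 432 CPM in cells with neither, and 5.61 and 73.6 CPM in Ccr2 cells (3 and 30 UMIs). Resident-marker cells exceeded Ccr2 cells in both mice, 68.2-fold and 13-fold in CPM. The fitted difference was 4.14 ± 0.22 on the log2 scale (adjusted p = 6.08e-13, edgeR's quasi-likelihood test). In CPM the log2 ratios of the mice were 6.09 and 3.70, so this SE does not measure the spread between them. Ccl8 was at 973 and 209 CPM, 292 and 132 CPM, and 57.9 and 9.81 CPM in the same order, with 31 and 4 UMIs in Ccr2 cells. It was 16.8-fold and 21.3-fold higher in resident-marker than in Ccr2 cells, with a fitted difference of 3.95 ± 0.28 (adjusted p = 1.26e-10, same test). For both genes the order of the subsets was the same in each mouse, but across the mice resident-marker cells and cells with neither overlapped. Cells with neither had 432 CPM of Ccl24 in mouse 2, above the 382 CPM of resident-marker cells in mouse 1. They had 292 CPM of Ccl8 in mouse 1, above the 209 CPM of resident-marker cells in mouse 2. Ccr2 cells of either mouse stayed below the neither cells of both.

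Pf4 was at 5338 and 6845 CPM in resident-marker cells, 3162 and 4308 CPM in cells with neither, and 1254 and 1402 CPM in Ccr2 cells, so no 2 subsets overlapped. It differed between the outer subsets by 2.11 ± 0.06 (adjusted p = 9.09e-18, edgeR's quasi-likelihood test). Ccl12 was at 1352 and 673 CPM, 1047 and 524 CPM, and 349 and 71.1 CPM, with 2.19 ± 0.14 (adjusted p = 2.17e-11). Ccl7 was at 640 and 410 CPM, 376 and 177 CPM, and 194 and 39.2 CPM, with 2.08 ± 0.18 (adjusted p = 3.68e-09). Ccl2 was at 457 and 532 CPM, 321 and 254 CPM, and 241 and 140 CPM, with 1.26 ± 0.15 (adjusted p = 1.2e-06). All of these adjusted p-values are from edgeR's quasi-likelihood test. Without the mouse term the calls for Ccl24 (adjusted p = 0.0577), Ccl8 (0.0643), Ccl12 (0.139) and Ccl7 (0.137) were lost, while those for Pf4 and Ccl2 held.

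Ccl6 and Ccl9 differed less between the subsets. Ccl6 was at 5802 and 3384 CPM in resident-marker cells, 2591 and 1472 CPM in cells with neither and 2508 and 1932 CPM in Ccr2 cells, and the log2 difference of the outer subsets was 0.94 ± 0.08 (adjusted p = 1.08e-09, edgeR's quasi-likelihood test). Ccl9 was at 3319 and 1992 CPM, 1888 and 995 CPM, and 1807 and 1182 CPM, with 0.75 ± 0.07 (adjusted p = 1.46e-08, same test). Both fell short of the fold of the call. Between Ccr2 cells and cells with neither, the 2 genes were not called (0.21 ± 0.08 for Ccl6 and 0.13 ± 0.07 for Ccl9), and the mice went opposite ways. Of Ccr2 macrophages 93.9% and 92% had a Ccl6 UMI.

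Ccl4 was the gene called lower in resident-marker than in Ccr2 cells (-1.48 ± 0.29, adjusted p = 0.000793, edgeR's quasi-likelihood test), and that call rests on 1 cell. It was at 112 and 61.8 CPM in resident-marker cells and at 432 and 22.1 CPM in Ccr2 cells, so the mice went opposite ways. A single Ccr2 macrophage of mouse 1 held 184 Ccl4 UMIs, 79.7% of those in its subset, and the next macrophage of that mouse held 27. Without the top Ccl4 macrophage of each mouse the difference was 0.53 (adjusted p = 0.111, edgeR's quasi-likelihood test), and that of Ccr2 cells against cells with neither went from 0.94 to -0.98. The call was also lost without the mouse term (adjusted p = 0.462) and with DESeq2 (adjusted p = 0.925). Ccl3 was at 120 and 37.2 CPM in resident-marker cells, 152 and 47.8 CPM in cells with neither, and 95.3 and 39.2 CPM in Ccr2 cells, with no call between any of the subsets.

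Between resident-marker cells and cells with neither, 3 of the 10 were called higher (0.964% of all genes were) and none lower (1.82%). Ccl24 differed by 1.33 ± 0.11 (adjusted p = 1.65e-09), Ccl8 by 1.26 ± 0.14 (4.17e-07) and Ccl6 by 1.15 ± 0.07 (1.54e-11), all by edgeR's quasi-likelihood test. Ccl6 was 2.24-fold and 2.3-fold higher, Ccl24 3.14-fold and 2.21-fold, and Ccl8 3.33-fold and 1.59-fold. The calls were lost for all 3 without the mouse term, for Ccl24 with DESeq2 (adjusted p = 0.408), and for Ccl6 (0.94) and Ccl8 (0.89) under stricter subset gates, where the fold fell below the floor. Without the fold floor 9 of the 10 passed (11.7% of all genes did), of which Ccl3 alone was lower (-0.37 ± 0.10, adjusted p = 0.0203).

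Ccr2 cells against cells with neither had 5 of the 10 called lower (1.5% of all genes were) and none higher (1.27%). They were Ccl24 (-2.81 ± 0.25, adjusted p = 1.91e-08), Ccl8 (-2.69 ± 0.32, 1.78e-06), Ccl12 (-1.86 ± 0.14, 1.96e-09), Pf4 (-1.43 ± 0.06, 9.15e-14) and Ccl7 (-1.14 ± 0.19, 0.000239), by edgeR's quasi-likelihood test. Only Pf4 was still called without the mouse term, and Ccl7 was also lost with DESeq2 (adjusted p = 0.206), with at least 30 C1q UMIs per macrophage (-0.99) and with looser subset gates (-0.53). Depth moved with the subsets: the median was 3028 and 2944 UMIs in resident-marker cells, 2407 and 2364.5 in cells with neither and 3700.5 and 3359 in Ccr2 cells. Among macrophages of 3000 to 8000 UMIs the numbers of members called were the same in all 3 comparisons (7, 3 and 5). Over the 7943 genes tested there the calls were 505, 284 and 188.

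Markers of other cell types moved with the subsets as well. The 6 dendritic markers summed to 243 and 145 CPM in Ccr2 cells, 65.2 and 99.5 CPM in cells with neither and 122 and 135 CPM in resident-marker cells. Clec10a made up 109 and 126 CPM of the last, and the other 5 summed to 13 and 8.97 CPM there against 168 and 88.3 CPM in Ccr2 cells. The 6 monocyte markers summed to 708 and 397 CPM in Ccr2 cells and to 1646 and 1604 CPM in resident-marker cells. Nearly all of the latter was F13a1 (1636 and 1600.5 CPM), a gene among those most like Pf4, and the other 5 ran the opposite way, with 10.3 and 3.65 CPM in resident-marker cells against 381 and 49 CPM in Ccr2 cells. Their part in the differences was not tested. From a list of 20 genes of the resident macrophage programme, 17 of the 19 tested were called higher in resident-marker than in Ccr2 cells and none lower, among them the folate receptor Folr2 (3.84 ± 0.11). Of 31 immediate response genes 2 were higher (Ier3 1.63 ± 0.15 and Klf2 1.30 ± 0.08) and 1 lower, the cytokine Il1b (-2.13 ± 0.27), and of 16 interferon-stimulated genes none of the 15 tested was called. These lists were drawn up with earlier results of these data known.

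Over single macrophages the 10 genes formed small sets that rose and fell together. The r given is Pearson's on the log of counts per 10000 UMIs plus 1, over 3001 and 2362 cells that share a library and differ in depth, as a description only. Ccl6 and Ccl9, whose genes lie 9.2 kb apart, had the highest r at 0.61 and 0.58. Ccl2 and Ccl7 had 0.46 and 0.45, Ccl7 and Ccl12 0.37 and 0.38, and Ccl2 and Ccl12 0.30 and 0.32. Ccl8, the other gene of that stretch of chromosome 11, had 0.14 and 0.13 with its neighbour Ccl12. Ccl3 and Ccl4 had 0.24 and 0.22 with each other and between -0.10 and -0.03 with Ccl6 and Ccl9. Ccl24 and Pf4, on the same chromosome but far apart, had 0.30 and 0.40. The longest exact run that transcripts of 2 members share was 25 bases, for Ccl6 and Ccl9, and 23 for Ccl2 and Ccl7.

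**Figure D4:**
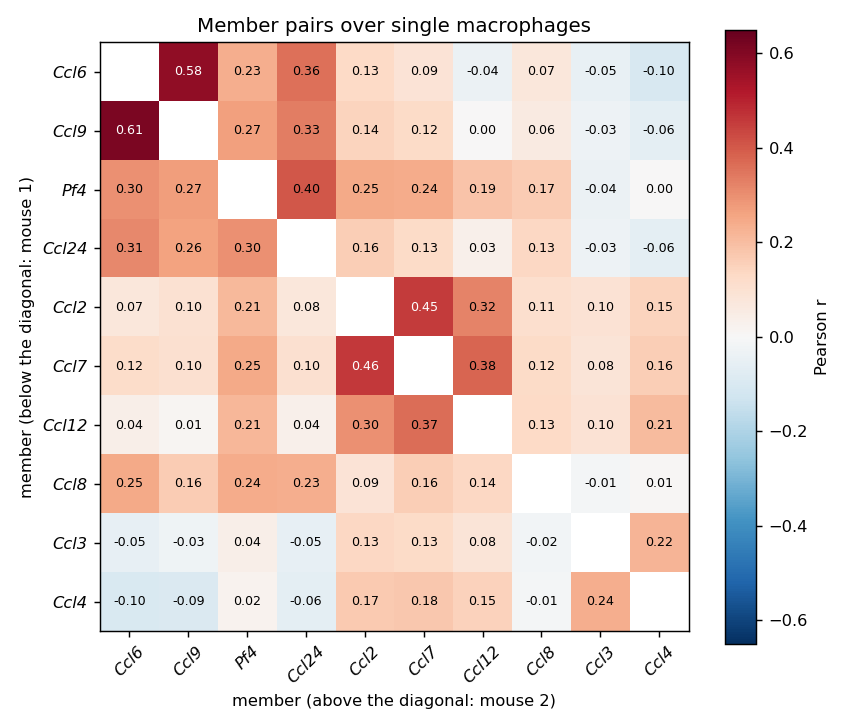
Pearson r between members over single macrophages, with mouse 1 below the diagonal (3001 cells) and mouse 2 above it (2362 cells). Ccl6 with Ccl9 (0.61 and 0.58) and the block of Ccl2, Ccl7 and Ccl12 (0.30 to 0.46) stand out in both mice, and Ccl3 with Ccl4 is the closest pair for either gene.

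In plain shares, Ccl7 was found in 64.4% of macrophages with Ccl2 and in 29.6% of those without it in mouse 1, and in 43.7% and 13.5% in mouse 2. Ccl4 was found in 28.4% of macrophages with Ccl3 and in 11.2% of those without in mouse 1, and in 28.3% and 8.94% in mouse 2. The same order held within the resident-marker subset, where Ccl7 was in 69.7% and 34.9% of cells of mouse 1 with and without Ccl2 and in 51.5% and 18.9% of mouse 2. Among 3176 genes with at least 0.1 UMI per macrophage, the genes most like Ccl6 after Ccl9 were Folr2 (r = 0.50 and 0.49) and Lyve1 (0.53 and 0.45), of which Lyve1 set the resident-marker gate. Folr2 was also the gene most like Pf4 (0.44 and 0.50) and Ccl24 (0.36 and 0.48). For Ccl8 it was Wfdc17 (0.39 and 0.25), and for Ccl3 and Ccl4 no gene but the other reached 0.2 in each mouse.

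The mice differed in the level of most members, and 1 library on each side allows no test. In macrophages mouse 1 exceeded mouse 2 by 4.49-fold for Ccl8 (95% counting interval 4.21 to 4.8), 3-fold for Ccl3 (2.63 to 3.43), 2.14-fold for Ccl12 (2.07 to 2.23) and 1.96-fold for Ccl6 (1.93 to 2). Ccl7 (1.96-fold), Ccl9 (1.92-fold) and Ccl4 (1.92-fold) were close to these, and Ccl2 was nearly level (1.09-fold, 1.03 to 1.14). Pf4 and Ccl24 went the other way, with ratios of 0.841 (0.829 to 0.853) and 0.436 (0.415 to 0.457). Subset makeup moved with the mouse, since resident-marker cells were 60.7% of macrophages in mouse 1 and 41.3% in mouse 2. Within resident-marker cells the ratio was 4.65 for Ccl8, 2.01 for Ccl12, 1.71 for Ccl6, 0.4 for Ccl24 and 0.78 for Pf4. In cells with neither it was 2.22 for Ccl8 and 1.76 for Ccl6, and in Ccr2 cells 5.91 and 1.3. The part of subset makeup in the ratios over all macrophages was not tested. Ccl2 was 0.858 in resident-marker cells and 1.26 in cells with neither, while in fibroblasts it was 4.06 (3.78 to 4.37).

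**Figure D5:**
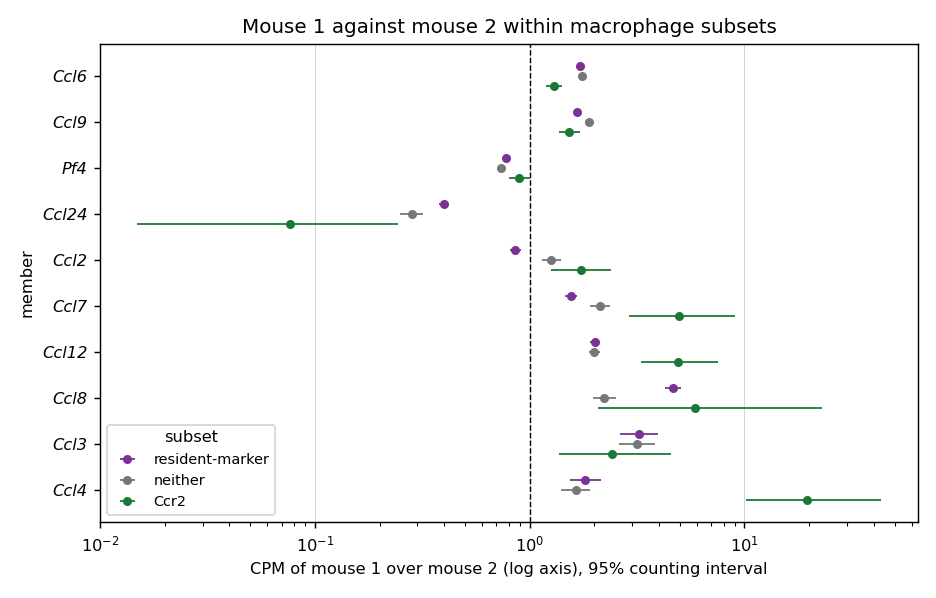
CPM of mouse 1 over mouse 2 for each gene (log axis) within the resident-marker, neither and Ccr2 subsets, with 95% intervals of counting error only. Ccl24 and Pf4 lie below 1 in all 3 subsets, Ccl12, Ccl8, Ccl3, Ccl7, Ccl6 and Ccl9 above it, and the Ccl4 ratio of 19.6 in Ccr2 cells carries the single rich cell of mouse 1.

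The libraries differed in other cells too. Neutrophil-type cells numbered 71 in mouse 1 and 2 in mouse 2, and the 6 neutrophil markers summed to 363 and 39.3 CPM in macrophages. Neutrophil-type cells held Ccl6 at 4110 CPM in mouse 1 (377 UMIs) and 6487 CPM in mouse 2 (13 UMIs in 2 cells), against 4673 and 2379 CPM in macrophages. Per C1q UMI the mouse 1 value was 26 times that of macrophages, whereas Pf4 was 1.16 times. The gate of these cells held C1q to at most 10 UMIs a cell, so the size of such ratios depends on it. The part of neutrophil RNA in the higher Ccl6 of mouse 1 was not tested. The 6 cardiomyocyte markers summed to 616 and 240 CPM in macrophages, and of the immediate response genes the transcription factor Cebpb was at 695 and 248 CPM in macrophages and 424 and 136 CPM in fibroblasts. That list was mixed between the mice. In macrophages Dusp1 was at 996 and 577 CPM, Fos at 1626 and 1544, Jun at 861 and 877, and Il1b at 47.9 and 96.8.

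Some members were also found in leukocytes that no class gate took. The gates of these groups held C1q to at most 10 UMIs a cell, so the size of values per C1q UMI depends on them. Monocyte-type cells (63 and 15) held Ccl6 at 1636 and 490 CPM and Ccl9 at 1091 and 579 CPM, which per C1q UMI was 15.6 and 18.8 times and 17.3 and 36 times the macrophage value. Lymphocytes (110 and 106) held Ccl4 at 303 and 95.4 CPM, above macrophages in both mice (142 and 73.8 CPM), with 104 and 84.5 times as much per C1q UMI. In mouse 1 a single lymphocyte held 78.5% of these 65 UMIs, and in mouse 2 the richest held 30% of 20 UMIs. The Ccl4 of monocyte-type cells in mouse 2 (735 CPM, 33 UMIs) was 84.8% in 1 cell, and natural killer markers summed to 1180 CPM in those 15 cells and to 0 in the 63 of mouse 1.

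Among receptors for these ligands, Ccr1 was found on the same leukocytes. Ccr1, a receptor for Ccl3, Ccl6 and Ccl9, was at 140 and 60.6 CPM in macrophages, 144 and 60.3 CPM in dendritic cells and 512 CPM in the neutrophil-type cells of mouse 1, and it was higher in macrophages than in fibroblasts by 6.06 ± 0.26 (adjusted p = 1.02e-23, edgeR's quasi-likelihood test). Ccr3, the receptor for Ccl24, was at 0.11 and 0.30 CPM in macrophages and had no UMI in the other 3 classes. Of the 20 receptors listed, 10 passed the filter on low counts, and against fibroblasts 4 were higher in macrophages and 4 lower. The lower ones included the scavenging receptors Ackr3 (-6.52 ± 0.23) and Ackr4 (-5.89 ± 0.34).

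The remaining chemokines did not follow the 10. Of 27 listed, 18 were tested between macrophages and fibroblasts, and 7 were higher in macrophages and 7 lower, with a median log2 fold change of 0.18. The neutrophil attractant Cxcl2 was higher (168 and 143 CPM against 12.3 and 4.83 CPM, 4.52 ± 0.21). Fibroblasts instead held Ccl11, an eotaxin like Ccl24, at 279 and 269 CPM against 1.84 and 1.82 CPM in macrophages (-6.84 ± 0.25), Ccl19 (-7.90 ± 0.35) and Cxcl14 (-6.01 ± 0.21). Against endothelium 6 were higher and 5 lower, the lower ones led by Cxcl12 (-6.19 ± 0.22) and the lymphatic chemokine Ccl21a (-6.03 ± 0.27). Between resident-marker and Ccr2 macrophages only Cxcl13 was called among 13 tested, at 21.4 and 54.5 CPM against 0 UMIs. All of these calls were made with edgeR's quasi-likelihood test.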

How the data were processed

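The authors deposited 1 table per mouse, in which each value is a raw count of UMIs for a gene in a barcode. Per the submitters' processing notes, the tools were FastQC and Cell Ranger 2.2.0, and the build was mm10. The rule for choosing barcodes and the use of strand are not given in the sources used here. A predicted RefSeq model of Ccl4 overlaps Ccl3 on the opposite strand, and the GENCODE genes do not overlap, so without strand the counts of this pair could mix.

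From the counts, barcodes under 500 UMIs or 300 genes, or above 10% mitochondrial UMIs, were dropped (719 and 432), and doublets were called per mouse with Scrublet in scanpy 1.11.5 (405 and 248 removed). Total counts per summed class and mouse ran from 48446 (dendritic cells, mouse 1) to 9252912 (macrophages, mouse 1). The sums went into edgeR 4.0.16 under R 4.3.3 (TMM, filterByExpr, quasi-likelihood test). The mouse was a block in each fit, since the 2 animals supplied all classes. The 4 classes shared 1 fit (3 residual degrees of freedom) and 3 macrophage subsets another (2), and cells with both subset gates (23 and 9) were too few to enter. SE was derived from the F statistic, and SD is over the 2 mice. A count of 0 allows up to 3 counts. The tests were tried on simulated data. Alternatives were relative log expression scaling, DESeq2 1.42.0, no filter, no mouse block, other cell filters and gates, and each mouse alone. Leaving dendritic cells or the top Ccl4 macrophages out was chosen after seeing the data.

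All 10 members are reported. Genes most like a member were up to 3 per member with r of at least 0.2 in each mouse. Genes from the lists were named if among the 3 called with the largest change each way at 20 CPM or more; receptors were also named as the known partners of members, after their values were seen. The members and all lists were chosen with earlier results of these data known.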

Additional observations from a re-analysis of the deposited data

How the results depend on the processing

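The number of the 10 members called stayed within 1.5 times under every alternative for macrophages against fibroblasts, endothelium and dendritic cells. For fibroblasts against endothelium it went from 3 to 8 when cells of 2 or more gates were kept, where Ccl8 turned to -0.48 and Ccl4 to -2.15. Over all genes 3570 of 11601 were called in the main fit, and 3503 of 11767 with those cells kept. For resident-marker cells against cells with neither the number of members called went from 3 to 6 with looser subset gates, to 1 with stricter ones and to 9 without the fold floor. Over all genes the calls were 277 of 9956, then 275 of 8287 (looser), 235 of 10052 (stricter) and 1160 of 9956 (no floor). Without the mouse block the counts were 2 of 10 for resident-marker against Ccr2 cells (7 with the block), 0 for resident-marker cells against cells with neither (3 with it; 877 of 9956 genes had an unadjusted p below 0.05 and 46 were called by edgeR, and DESeq2 called 2 members) and 1 for Ccr2 cells against cells with neither (5 with it). Over all 9956 genes, leaving the block out took the calls from 642 to 234, from 277 to 46 and from 275 to 52. In the other comparisons, leaving the block out moved the count of members at most from 9 to 8 (macrophages against dendritic cells) and from 3 to 2 (fibroblasts against endothelium). Over all 11601 genes the calls in these comparisons went from 946 to 674 and from 3570 to 3338. Ccl4 in resident-marker against Ccr2 cells reversed to 0.53 without the top Ccl4 macrophage of each mouse and to 1.49 without mouse 1, against -1.95 without mouse 2.

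Counts over all genes moved under other settings too. In the 3 subset comparisons 642, 277 and 275 genes were called in the main fit, and DESeq2 called 400, 111 and 154. Against dendritic cells, macrophage calls fell from 946 to 623 with relative log expression, 566 with DESeq2 and 477 with cells of several gates kept, where 339 were higher and 138 lower. DESeq2 gave 1411 higher and 2212 lower against endothelium (1952 and 1992 in edgeR), and 970 and 807 for dendritic cells against fibroblasts (794 and 1355). A stricter dendritic gate gave 1731 and 2818 against fibroblasts (2161 and 2246) and 1558 and 2477 against endothelium.

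Of 1105 single-member values under alternatives, 1035 kept their direction and, where a test was run, their side of the threshold. Another 23 were no longer called, 20 were newly called and 27 changed sign. Values of a single mouse were judged by direction alone, and values without the fold floor could not change sign. Both kinds add to the 1035, so that number is no measure of stability. Most sign changes were in values that were not called. For macrophages against fibroblasts, Ccl2 (0.00) went to -0.25 with relative log expression, -0.41 without the block, -0.35 with DESeq2, -0.15 with cells of several gates kept, -0.05 with stricter fibroblast and endothelial gates and -0.29 with a stricter dendritic gate, and Ccl7 to -0.04 with relative log expression, -0.04 with DESeq2 and -0.08 with a stricter dendritic gate. Ccl3 against dendritic cells went to -0.02 with relative log expression and -0.22 with DESeq2. For fibroblasts against endothelium, Ccl3 went to 0.08 without the block, Ccl4 to -0.01 with doublets kept and -0.32 without the cell filter, and Ccl12 to 0.07 with stricter gates. Ccl4 in Ccr2 cells against cells with neither went to -0.98 without the top Ccl4 macrophages. Over the single mice the range was -1.38 to 0.52 for Ccl2 and -0.4 to 0.1 for Ccl7 (macrophages against fibroblasts), -1.63 in mouse 2 for Ccl3 against dendritic cells, -0.08 to 0.33 for Ccl3 (resident-marker against Ccr2 cells), and, for Ccr2 cells against cells with neither, -2.05 to 1.53 for Ccl4, -0.05 to 0.39 for Ccl6 and -0.06 to 0.25 for Ccl9. Each mouse taken alone gives a ratio and no test, so no count of calls exists without a mouse. Depth limits the dendritic cells (10 and 26 cells) and the Ccr2 subset (132 and 112), where several members rest on fewer than 10 UMIs.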
